A study of Mus musculus with 20 samples.

Results

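The transcripts of 10 genes through which hormones and nerves constrict arteries were followed in the mouse abdominal aorta: the angiotensin receptors *Agtr1a* and *Agtr2*, the angiotensin precursor *Agt*, the converting enzyme *Ace*, the endothelin gene *Edn1*, the endothelin receptors *Ednra* and *Ednrb*, the vasopressin receptor *Avpr1a*, the alpha1-adrenergic receptor *Adra1d* and the signalling brake *Rgs2*. They were chosen by name, as the receptors of the infused hormone and of its nearest relatives with a few of their ligands and regulators, and are 10 of the 43422 genes with a value in every library, 43226 of which have a symbol in GENCODE M21. The question was whether infused angiotensin II (Ang II) altered the expression of its own receptor system. The study infused saline or Ang II at 1000 ng/kg per minute from subcutaneous osmotic pumps for 14 days into C57BL/6 mice that were wild type (WT) or lacked lysyl hydroxylase 1 in the whole animal (*Plod1-/-*), an enzyme that hydroxylates lysines of collagen. RNA from the abdominal aorta of each of 20 mice was sequenced, with 5 mice for each combination of genotype and infusion. The labels give an age of 6 months for all mice, the study's methods give a younger age and the substrain C57Bl/6NCrl, and the study describes the mice as male. Which animals carried a dissecting aneurysm is not given in the sources used here.

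Angiotensinogen, the product of *Agt*, is cut by renin and then by angiotensin-converting enzyme to Ang II, which constricts vessels through the type 1 receptor and has mostly opposed actions through the type 2 receptor. Endothelin 1, made mainly by endothelium, acts on the type A receptor of smooth muscle, which constricts, and on the type B receptor, which in endothelium promotes relaxation and clears the peptide. The type 1 angiotensin, type A endothelin, V1a vasopressin and alpha1 adrenergic receptors all signal through the G protein Gq, which the RGS2 protein switches off.

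The values are FPKM (fragments scaled to transcript length and to the total mapped in that library), which were deposited without counts, so the read depth behind them is unknown. Their sum per library was between 344207 and 437790, and between 11657 and 13192 genes reached 1 FPKM. *Plod1* was at least 22.8 FPKM in each WT library and at most 0.0415 FPKM in each *Plod1-/-* library. *Xist*, a transcript of female cells, reached 15.1 FPKM in replicate 5 of the saline-treated and 7.93 FPKM in replicate 1 of the Ang II-treated *Plod1-/-* mice, but at most 0.0328 FPKM in the other 18 libraries. Libraries of both Ang II groups stood apart in other tissue RNA. *Dbh*, of sympathetic neurons and chromaffin cells, was at 89.7, 198 and 92.7 FPKM in Ang II-treated *Plod1-/-* replicates 3, 4 and 5, and *Acta1*, of skeletal muscle, was at 141, 77.2 and 111 FPKM in Ang II-treated WT replicates 2, 3 and 5. For the members and the pathway lists, the comparisons with Ang II were also made without these libraries.

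Ang II was compared with saline within each genotype. In WT mice the type B endothelin receptor rose and the other 6 members that could be tested did not pass. Among *Plod1-/-* mice *Ednrb*, *Agtr1a*, *Agt*, *Edn1* and *Avpr1a* rose, *Ace* and *Adra1d* fell, and *Ednra* and *Rgs2* did not pass. Genes were tested by limma on log2(FPKM + 1) where at least 5 of the 10 mice reached 1 FPKM, and a differentially expressed gene (DEG) had an adjusted p below 0.05 and a log2 fold change beyond 1 in either direction. In WT mice 1 of the 7 members tested was a DEG, against 8.66% of 11994 genes, and that one was higher, against 16.5% of all genes higher and 21.5% lower by adjusted p alone. The *Plod1-/-* comparison had 4 DEGs among the 9 members tested, against 13.9% of 12333 genes, and by adjusted p alone 5 were higher, against 23.8% of all genes, and 2 lower, against 20.1%. Under quantile normalization 42.1% rather than 54.3% of the genes that passed in *Plod1-/-* mice were the higher ones. *Agt* entered the test in *Plod1-/-* mice only through the treated animals. *Agtr1a* and *Ednrb* entered mainly through them, with saline-treated medians of 0.423 and 0.946 FPKM. The presence of these genes among the 5, and of *Agtr1a* and *Ednrb* among the 4 DEGs, is therefore partly fixed by the filter. In these bulk samples fewer cells of a type and less RNA per cell cannot be told apart. Without the 3 libraries with *Acta1* above 50 FPKM no member passed in WT mice, and without the 3 with *Dbh* above 10 FPKM 1 member, *Ace*, passed in *Plod1-/-* mice.

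**Figure D1:**
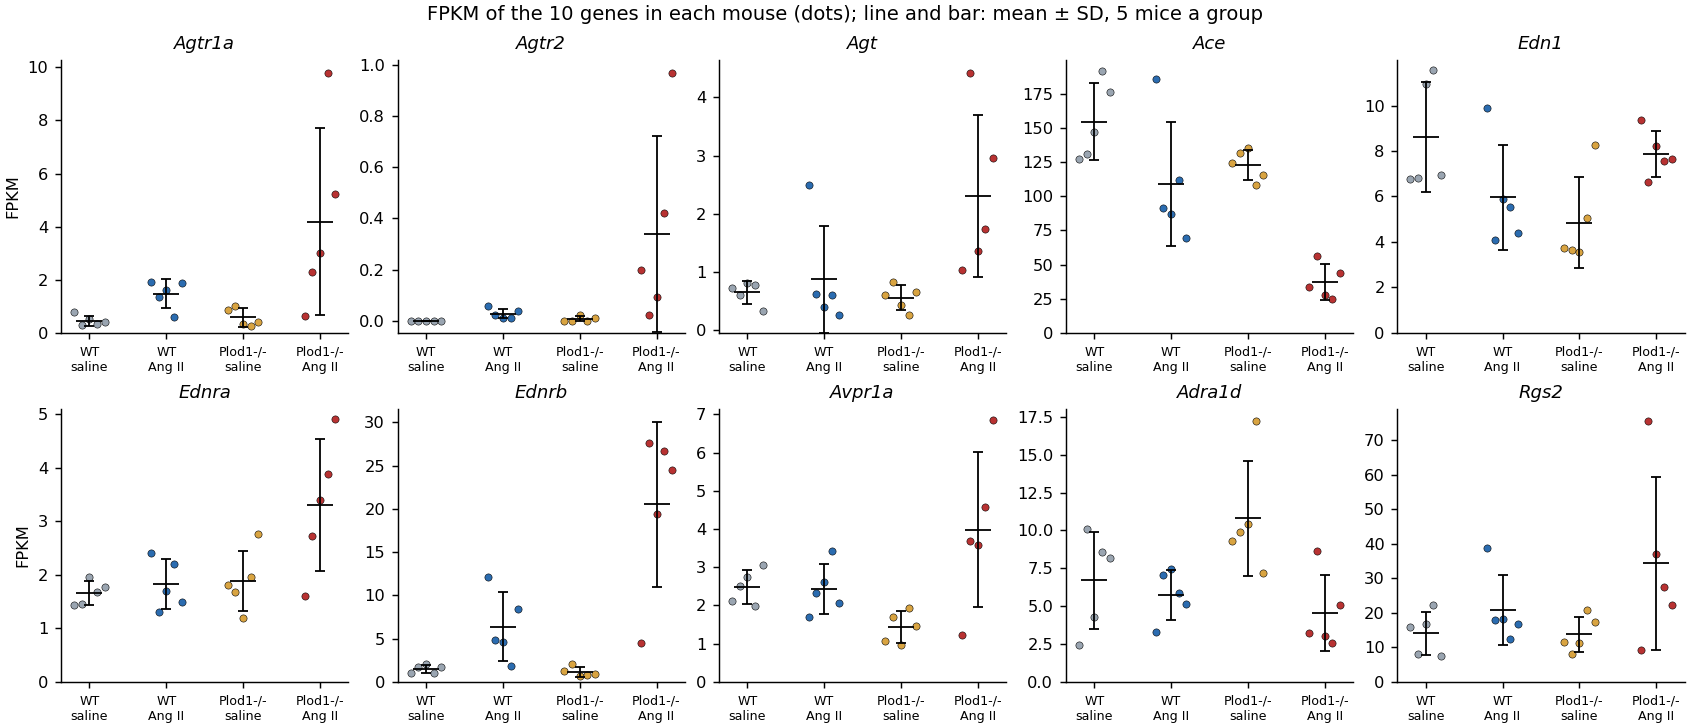
FPKM of each of the 10 genes on its own vertical axis, with 1 point for each mouse and the mean and SD of each of the 4 groups of 5 mice. The Ang II-treated *Plod1-/-* mice lie lowest for *Ace*, between 25.0 and 56.3 FPKM, and 4 of them lie highest for *Ednrb*, between 19.3 and 27.6 FPKM.

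*Agt* (ENSMUSG00000031980, chromosome 8, 124556534 to 124569706 of GRCm38, minus strand) encodes the precursor of all angiotensins and is made mostly in liver. It was at 0.728, 0.606, 0.819, 0.787 and 0.332 FPKM in saline-treated WT replicates 1 to 5 and at 2.49, 0.619, 0.406, 0.608 and 0.257 FPKM in the WT mice given Ang II. The *Plod1-/-* mice had 0.612, 0.837, 0.443, 0.260 and 0.660 FPKM with saline and 1.04, 4.42, 1.36, 1.75 and 2.96 FPKM with Ang II. In WT mice 3 of 5 treated mice were within the saline range, 1 was above it and 1 below it, whereas every treated *Plod1-/-* mouse was above every saline-treated one. The mean went from 0.562 ± 0.220 to 2.30 ± 1.39 FPKM (SD, n = 5) without the enzyme, which on the log2 scale was 1.00 higher (SE 0.25, adjusted p = 0.00815, limma), and with every gene kept in the fit the adjusted p was 0.0256. In WT mice the difference on the log2(FPKM + 1) scale was 0.08 (two-sided exact permutation test, p = 0.913). Markers of liver summed to at most 15.1 FPKM in any library.

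*Ace* (ENSMUSG00000020681, chromosome 11, 105967945 to 105989964, plus strand), the enzyme that completes Ang II and also destroys bradykinin, had the highest mean level of the 10 genes in all 4 groups. In WT mice it was at 127, 131, 147, 191 and 176 FPKM with saline and at 186, 91.7, 87.3, 112 and 69.2 FPKM with Ang II. The *Plod1-/-* levels were 124, 131, 135, 108 and 115 FPKM with saline and 33.4, 56.3, 27.6, 25.0 and 44.0 FPKM with Ang II. The 5 treated *Plod1-/-* mice were below every mouse of the other 3 groups, and in the treated WT mice replicate 1 stood with the saline-treated animals while the other 4 were below all of them. The mean was 123 ± 11.2 FPKM with saline and 37.3 ± 12.9 FPKM with Ang II in *Plod1-/-* mice, so that *Ace* fell by 1.75 on the log2 scale (95% interval -2.20 to -1.30, adjusted p = 0.000132, limma). In WT mice the means were 154 ± 28.1 and 109 ± 45.4 FPKM and the log2 fold change was -0.56 (95% interval -1.08 to -0.04, adjusted p = 0.0781, limma). That value rested on Ang II-treated WT replicate 1, since without it the log2 fold change was -0.77 with an adjusted p of 0.00997 by limma. *Ace* passed in *Plod1-/-* mice whichever mouse was left out, and without the 3 libraries with *Dbh* it still differed by -1.48 (adjusted p = 0.00460, limma).

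The 250 bases before one RefSeq start of *Ace*, at chr11:105967698-105967947 of GRCm38 on the plus strand, are shown because *Ace* passed as lower with Ang II in *Plod1-/-* mice under every setting run. The capitals mark a TATAAA on the opposite strand, 31 to 26 bases before the start.
Ace: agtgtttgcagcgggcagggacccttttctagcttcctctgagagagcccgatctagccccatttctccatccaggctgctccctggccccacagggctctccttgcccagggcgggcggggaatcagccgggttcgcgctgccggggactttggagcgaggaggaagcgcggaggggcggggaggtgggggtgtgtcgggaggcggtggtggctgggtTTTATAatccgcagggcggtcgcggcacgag
The letters TATAAA, read on both strands, occur in 12.4% of 32851 promoters of the same length. Among the 9 start sites of the 8 members with a RefSeq promoter they also occur for *Agt*, 30 to 25 bases before the start, and for *Avpr1a*, 137 to 132 bases before it. The AP-1 letters TGANTCA (6.75% of all promoters), the cyclic AMP response letters TGACGTCA (1.55%), the E-box letters CACGTG (6.02%) and the CArG box (1.47%) were found in none of the 9. *Agtr1a* and *Adra1d* were not among the promoters given.

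*Agtr1a* (ENSMUSG00000049115, chromosome 13, 30336441 to 30382867, plus strand) encodes the main rodent receptor for Ang II and was expressed at a low level. Rodents carry a second gene for the type 1 receptor, *Agtr1b*, whose coding sequence has the same length, 1080 bases, and 90.8% identity. The last part of both, bases 973 to 1062 of the coding sequence, is shown since it holds many of the differences by which reads are assigned to one gene, with the 20 bases that differ in capitals.
Agtr1a: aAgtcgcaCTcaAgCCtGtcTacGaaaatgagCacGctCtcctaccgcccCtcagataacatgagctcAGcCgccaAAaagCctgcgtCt
Agtr1b: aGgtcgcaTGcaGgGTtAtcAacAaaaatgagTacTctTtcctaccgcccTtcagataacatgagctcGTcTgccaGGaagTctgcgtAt
The longest run in which both are identical has 66 bases, at bases 75 to 140, and no stretch of 150 bases is identical. Within the coding sequence a shorter read from that run could belong to either gene.
Run: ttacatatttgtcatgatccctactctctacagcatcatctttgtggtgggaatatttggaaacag

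*Agtr1a* was at 0.768, 0.279, 0.516, 0.320 and 0.394 FPKM in the saline-treated and at 1.93, 1.34, 1.63, 0.613 and 1.87 FPKM in the WT mice given Ang II. The *Plod1-/-* animals were at 0.869, 1.03, 0.328, 0.264 and 0.423 FPKM with saline and at 0.649, 2.30, 3.0, 9.80 and 5.22 FPKM with Ang II. In each genotype 4 of 5 treated mice were above every saline-treated mouse, and the one that was not was replicate 4 in WT and replicate 1 in *Plod1-/-* mice. In WT mice, where too few mice reached 1 FPKM for the fit across genes, the means of 0.455 ± 0.196 and 1.48 ± 0.536 FPKM differed by 0.74 on the log2(FPKM + 1) scale (two-sided exact permutation test, p = 0.0159, the smallest possible being 0.00794). This was 1 of 8 such tests on members below the filter, whose p-values were not adjusted. With every gene kept in the WT fit the adjusted p by limma was 0.0310 for *Agtr1a*, 0.103 for *Agtr2* and 0.836 for *Agt*. The *Plod1-/-* means were 0.582 ± 0.343 and 4.19 ± 3.54 FPKM, and *Agtr1a* rose by a log2 fold change of 1.47 (95% interval 0.54 to 2.39, adjusted p = 0.0160, limma). Without saline-treated replicate 2, or without any of Ang II-treated replicates 2 to 5, fewer than 5 mice reached 1 FPKM and the gene left the fit. The Ang II-treated mice outside the libraries with *Acta1* or *Dbh* were at 1.93 and 0.613 FPKM in WT and 0.649 and 2.30 FPKM in *Plod1-/-* mice, 1 of 2 in each genotype lying above every saline-treated mouse. The second gene passed as lower with Ang II in WT mice only. In these *Agtr1b* was at 1.64, 1.53, 1.67, 1.54 and 0.584 FPKM with saline and at 0.618, 0.463, 0.662, 1.27 and 0.565 FPKM with Ang II. It fell by 0.47 on the log2 scale (adjusted p = 0.0463, limma), with 2 of the 5 treated mice below every saline-treated one. In *Plod1-/-* mice it was at 0.980, 1.57, 1.53, 3.17 and 4.93 FPKM with saline and at 1.79, 0.610, 1.12, 0.686 and 0.413 FPKM with Ang II, a log2 fold change of -0.76 (adjusted p = 0.0604, limma).

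*Agtr2* (ENSMUSG00000068122, chromosome X, 21484544 to 21489164, plus strand), the type 2 receptor, is abundant in fetal tissue and scarce in most adult vessels. It was the lowest of the 10 genes in every group and was listed at 0 in all 5 saline-treated WT mice. In the Ang II-treated WT mice it was at 0.0554, 0.0213, 0.0115, 0.0105 and 0.0365 FPKM. Levels in *Plod1-/-* mice were 0, 0, 0.0229, 0 and 0.0107 FPKM with saline and 0.197, 0.0202, 0.0906, 0.421 and 0.970 FPKM with Ang II. The treated WT mice were all above the saline-treated ones, by 0.04 on the log2(FPKM + 1) scale (two-sided exact permutation test, p = 0.00794, the smallest possible). In *Plod1-/-* mice replicate 2 of the treated group fell within the saline range, and the difference was 0.37 (two-sided exact permutation test, p = 0.0159). Outside the libraries with *Acta1* or *Dbh* the Ang II-treated mice were at 0.0554 and 0.0105 FPKM in WT and at 0.197 and 0.0202 FPKM in *Plod1-/-* mice. No level reached 1 FPKM, and with no counts in the files the number of fragments behind these values is unknown.

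*Ednrb* (ENSMUSG00000022122, chromosome 14, 103814625 to 103844402, minus strand), the type B endothelin receptor, had the largest log2 difference between Ang II and saline of the members tested in each genotype. In WT mice it was at 1.01, 1.75, 2.05, 1.09 and 1.70 FPKM with saline and at 12.1, 4.89, 4.58, 1.84 and 8.40 FPKM with Ang II. The *Plod1-/-* mice were at 1.30, 2.04, 0.707, 0.773 and 0.946 FPKM with saline and at 4.50, 27.6, 19.3, 26.7 and 24.5 FPKM with Ang II. All 5 treated *Plod1-/-* mice and 4 of 5 treated WT mice were above every saline-treated mouse of their genotype, and Ang II-treated WT replicate 4 was within the saline range. The means in WT mice were 1.52 ± 0.453 and 6.36 ± 3.97 FPKM, a ratio of 4.19, and *Ednrb* rose by a log2 fold change of 1.38 (95% interval 0.65 to 2.12, adjusted p = 0.0110, limma). For *Plod1-/-* mice they were 1.15 ± 0.545 and 20.5 ± 9.52 FPKM, a ratio of 17.8, and the log2 fold change was 3.15 (95% interval 2.22 to 4.07, adjusted p = 0.000267, limma). Both calls held with any single mouse left out, with log2 fold changes of 1.13 to 1.68 in WT and 2.99 to 3.59 in *Plod1-/-* mice. Without the 3 libraries with *Acta1* the WT value was 1.30 with an adjusted p of 0.242 by limma, from the 2 treated mice that remained. Without the 3 libraries with *Dbh* the gene fell below the filter, and the 2 treated *Plod1-/-* mice that remained, at 4.50 and 27.6 FPKM, were above every saline-treated *Plod1-/-* mouse.

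The 250 bases before the RefSeq start of *Ednrb*, at chr14:103843702-103843951 of GRCm38 on the minus strand, are printed because it was the member that rose most, and they hold none of the 5 motifs searched.
Ednrb: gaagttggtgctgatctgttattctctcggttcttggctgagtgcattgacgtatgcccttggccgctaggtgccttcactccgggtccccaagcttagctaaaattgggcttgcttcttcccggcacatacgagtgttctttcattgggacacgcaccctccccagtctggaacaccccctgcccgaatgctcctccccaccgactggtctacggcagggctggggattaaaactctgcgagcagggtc

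*Ednra* (ENSMUSG00000031616, chromosome 8, 77663031 to 77724464, minus strand), the type A receptor of smooth muscle, was low in all groups. It was at 1.44, 1.45, 1.97, 1.68 and 1.78 FPKM in the saline-treated and at 2.41, 1.31, 1.69, 2.20 and 1.5 FPKM in the WT mice given Ang II. Values in *Plod1-/-* mice were 1.82, 1.68, 1.20, 1.97 and 2.76 FPKM with saline and 1.60, 2.73, 3.40, 3.88 and 4.91 FPKM with Ang II. In WT mice 2 treated mice were above all of the saline-treated ones and 1 was below them, and 3 of the treated *Plod1-/-* mice were above all of the saline-treated ones. The log2 fold changes were 0.07 (adjusted p = 0.655, limma) in WT and 0.55 (95% interval 0.07 to 1.02, adjusted p = 0.0617, limma) in *Plod1-/-* mice. The second passed without Ang II-treated *Plod1-/-* replicate 1 (0.72, adjusted p = 0.00601, limma) or without saline-treated *Plod1-/-* replicate 5 (0.65, adjusted p = 0.0436, limma), which are the 2 libraries with *Xist*, and with the replicate number as a block (adjusted p = 0.0394, limma). The FPKM of *Ednrb* divided by that of *Ednra* in the same mouse in WT mice averaged 0.910 ± 0.235 with saline and 3.58 ± 1.90 with Ang II, and in *Plod1-/-* mice 0.650 ± 0.346 and 6.09 ± 2.68 (SD, n = 5). It was at most 1.21 in any saline-treated mouse and at least 2.71 in every Ang II-treated mouse except WT replicate 4, at 0.835.

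*Edn1* (ENSMUSG00000021367, chromosome 13, 42301476 to 42307990, plus strand) encodes endothelin 1, a strong constrictor peptide. It was at 6.78, 6.83, 10.9, 11.6 and 6.95 FPKM in the saline-treated and at 9.88, 4.10, 5.87, 5.56 and 4.39 FPKM in the WT mice given Ang II. The *Plod1-/-* values were 3.72, 3.65, 3.56, 5.06 and 8.27 FPKM with saline and 9.37, 6.62, 8.21, 7.55 and 7.63 FPKM with Ang II. In WT mice 4 of 5 treated mice were below all of the saline-treated ones, and in *Plod1-/-* mice the groups overlapped through saline-treated replicate 5. The mean was 8.61 ± 2.42 and 5.96 ± 2.32 FPKM in WT mice (log2 fold change -0.49, adjusted p = 0.10, limma), and the value was -0.66 (adjusted p = 0.0229, limma) without Ang II-treated WT replicate 1. *Edn1* rose in *Plod1-/-* mice from 4.85 ± 2.01 to 7.88 ± 1.01 FPKM, a log2 fold change of 0.65 (95% interval 0.22 to 1.08, adjusted p = 0.0192, limma). That call was lost under quantile normalization (0.52, adjusted p = 0.0712, limma) and without the 3 libraries with *Dbh* (0.66, adjusted p = 0.154, limma).

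*Avpr1a* (ENSMUSG00000020123, chromosome 10, 122448499 to 122453452, plus strand) is the vascular receptor for vasopressin. It was at 2.12, 2.52, 2.75, 1.98 and 3.07 FPKM with saline and at 1.71, 2.32, 2.62, 3.43 and 2.08 FPKM with Ang II in WT mice. Among *Plod1-/-* mice it was at 1.06, 1.70, 0.970, 1.94 and 1.47 FPKM with saline and at 1.22, 3.70, 3.57, 4.59 and 6.84 FPKM with Ang II. The WT groups overlapped, and 4 of the 5 treated *Plod1-/-* mice were above every saline-treated *Plod1-/-* mouse. It rose in *Plod1-/-* mice by a log2 fold change of 0.94 (95% interval 0.31 to 1.57, adjusted p = 0.0211, limma), whereas in WT mice the value was -0.03 (adjusted p = 0.866, limma). The call in *Plod1-/-* mice was lost without saline-treated replicate 1 (adjusted p = 0.050, limma), without Ang II-treated replicate 4 (adjusted p = 0.0508, limma), when low genes were kept (adjusted p = 0.0561, limma) and without the libraries with *Dbh* (0.43, adjusted p = 0.332, limma).

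*Adra1d* (ENSMUSG00000027335, chromosome 2, 131545850 to 131562283, minus strand) is the alpha1-adrenergic subtype that mediates much of the contraction of the mouse aorta to noradrenaline. It was at 2.44, 10.1, 4.31, 8.58 and 8.15 FPKM with saline and at 3.32, 7.04, 7.44, 5.87 and 5.11 FPKM with Ang II in WT mice. *Plod1-/-* mice had 9.27, 9.89, 10.4, 17.2 and 7.19 FPKM with saline and 3.26, 8.66, 3.06, 2.55 and 5.10 FPKM with Ang II. The treated *Plod1-/-* mice were below all of the saline-treated ones apart from replicate 2. The mean was 10.8 ± 3.80 with saline and 4.53 ± 2.50 FPKM with Ang II, and *Adra1d* fell by 1.15 on the log2 scale (95% interval -1.78 to -0.51, adjusted p = 0.00871, limma). This passed with any single mouse left out, and without the 3 libraries with *Dbh* the value was -0.83 (adjusted p = 0.154, limma). In WT mice the log2 fold change was -0.11 (adjusted p = 0.795, limma).

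*Rgs2* (ENSMUSG00000026360, chromosome 1, 143999338 to 144004161, minus strand) encodes a protein that speeds the inactivation of Gq, and its loss is known to raise blood pressure in mice. In WT mice it was at 16.0, 8.11, 16.9, 22.2 and 7.39 FPKM with saline and at 38.7, 17.9, 18.2, 12.5 and 16.9 FPKM with Ang II. In *Plod1-/-* mice it was at 11.5, 8.03, 11.3, 20.7 and 17.3 FPKM with saline and at 9.31, 75.6, 37.0, 27.6 and 22.3 FPKM with Ang II. The groups overlapped in WT mice, and 4 of 5 treated *Plod1-/-* mice were above all of the saline-treated ones. The log2 fold changes were 0.54 (95% interval -0.19 to 1.27, adjusted p = 0.205, limma) in WT and 1.04 (95% interval 0.02 to 2.05, adjusted p = 0.0910, limma) in *Plod1-/-* mice. The second passed without Ang II-treated *Plod1-/-* replicate 1 (1.41, adjusted p = 0.00886, limma).

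Some members lie within or across other annotated genes. *Ace*, *Edn1*, *Ednra*, *Avpr1a* and *Adra1d* are overlapped on the opposite strand by Gm11651, Gm47118, 4933431K23Rik, Gm48877 and Gm14285, and the libraries were not strand-specific, so that reads of the shared bases cannot be told apart. Those partners were at most 0.128, 1.30, 0.152, 2.39 and 2.07 FPKM in any mouse. For *Avpr1a* and *Adra1d* this is in the range of some of the values given above.

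The genotypes were compared directly under Ang II, to see whether the receptor system differed between *Plod1-/-* and WT aortas exposed to the same dose. *Ace* was lower and *Ednrb* higher in the Ang II-treated *Plod1-/-* mice, and the other 7 members tested did not pass. *Ace* differed by -1.5 on the log2 scale (95% interval -2.14 to -0.87, adjusted p = 0.00514, limma) with no overlap between the groups. *Ednrb* differed by 1.52 (95% interval 0.41 to 2.64, adjusted p = 0.0414, limma), with 4 of the 5 *Plod1-/-* mice above every WT mouse and replicate 1 within the WT range. The 2 DEGs were 2 of 9 members tested, against 11.1% of 12356 genes, and by adjusted p alone 20.8% of all genes were higher and 10.4% lower. Under quantile normalization 49.3% rather than 66.7% of the genes that passed were the higher ones. *Agtr2*, below the filter, was higher by 0.34 on the log2(FPKM + 1) scale (two-sided exact permutation test, p = 0.0317). The interval of *Agtr1a*, *Agt*, *Edn1*, *Ednra*, *Avpr1a*, *Adra1d* and *Rgs2* is wide with 5 mice in each group, and their values were 0.83, 0.83, 0.40, 0.57, 0.45, -0.35 and 0.50 on the log2 scale, with adjusted p-values by limma between 0.0608 and 0.429.

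The *Ednrb* call under Ang II depended on single mice. It was lost when any of Ang II-treated WT replicates 2, 3, 4 and 5 or of Ang II-treated *Plod1-/-* replicates 2, 3, 4 and 5 was left out, with log2 differences from 1.23 to 1.96 over all 10 omissions and adjusted p-values from 0.0556 to 0.0974 by limma where it was lost. Without Ang II-treated *Plod1-/-* replicate 1, one of the libraries with *Xist*, 6 members passed, the 4 added being *Agtr1a* (1.17, adjusted p = 0.0192, limma), *Agt* (0.98, adjusted p = 0.0382, limma), *Ednra* (0.74, adjusted p = 0.00805, limma) and *Avpr1a* (0.71, adjusted p = 0.0176, limma). Without Ang II-treated WT replicate 1 the members that passed were *Agt*, *Ace*, *Edn1* and *Ednrb*. *Ace* passed in all 10 omissions. Without the 3 libraries with *Dbh* no member passed (*Ace* -1.23, adjusted p = 0.154; *Ednrb* 0.95, adjusted p = 0.510, limma), and without the 3 with *Acta1* none did either (*Ace* -1.99, adjusted p = 0.103, and *Ednrb* 1.61, adjusted p = 0.307, limma).

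The difference of the Ang II effect between the genotypes was then tested in 1 fit over all 20 mice. *Ednrb* was raised more in *Plod1-/-* than in WT mice, by 1.76 (95% interval 0.57 to 2.96, adjusted p = 0.0209, limma), and *Ace* was lowered more, by -1.19 (95% interval -1.87 to -0.51, adjusted p = 0.00876, limma). The effect on *Edn1* differed by 1.14 (95% interval 0.49 to 1.78, adjusted p = 0.00803, limma), from -0.49 in WT to 0.65 in *Plod1-/-* mice, and that on *Avpr1a* by 0.97 (95% interval 0.28 to 1.67, adjusted p = 0.0267, limma). Of 9 members tested 3 were thus DEGs, against 16.1% of 13263 genes. By adjusted p alone 3 were higher and 1 was lower, against 23.8% and 14.1% of all genes. Under quantile normalization 49.2% rather than 62.8% of the genes that passed were the higher ones. The values that did not pass were 0.72 for *Agtr1a*, 0.91 for *Agt*, 0.47 for *Ednra*, -1.04 for *Adra1d* and 0.50 for *Rgs2*, with adjusted p-values by limma between 0.0559 and 0.534. *Ace*, *Edn1* and *Ednrb* passed in all 20 fits that left out 1 mouse, *Avpr1a* was lost without Ang II-treated *Plod1-/-* replicate 4, and 7 members passed without Ang II-treated *Plod1-/-* replicate 1. Without the libraries with *Dbh* none passed, *Edn1* being at 1.15 (adjusted p = 0.0517, limma) and *Ace* at -0.91 (adjusted p = 0.0879, limma). Without those with *Acta1* only *Ace* did (-1.67, adjusted p = 0.00627, limma).

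With saline alone the genotypes differed in 1 of the 7 members tested. *Avpr1a* was lower in *Plod1-/-* mice, where all 5 values, at most 1.94 FPKM, were below the lowest WT value of 1.98 FPKM. The means were 2.49 ± 0.448 in WT and 1.43 ± 0.414 FPKM in *Plod1-/-* mice, a log2 difference of -0.53 (95% interval -0.82 to -0.24, adjusted p = 0.0411, limma). No member was a DEG, against 0.767% of 11999 genes, and by adjusted p alone 3.33% of all genes were higher and 3.23% lower. The *Avpr1a* call was lost in 9 of the 10 fits that left out 1 mouse, with adjusted p-values by limma from 0.0543 to 0.0845, and was kept without saline-treated WT replicate 1 (adjusted p = 0.0488). *Edn1* was at -0.74 (adjusted p = 0.0682, limma) and passed without saline-treated *Plod1-/-* replicate 5, a library with *Xist* (-0.92, adjusted p = 0.0325, limma). The log2 differences of *Ace*, *Adra1d*, *Ednrb*, *Ednra* and *Rgs2* were -0.31, 0.69, -0.24, 0.10 and 0.01, with adjusted p-values between 0.138 and 0.990 by limma. For *Agtr1a*, *Agtr2* and *Agt* the two-sided exact permutation tests gave p = 0.540, 0.444 and 0.516. The comparisons share groups of mice, so that the saline-treated *Plod1-/-* animals low in *Edn1* and *Avpr1a* are also the controls against which Ang II was set in that genotype.

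The make-up of the samples moved with treatment, and markers of cell types are given beside the members for that reason. The summed FPKM of 10 smooth muscle markers was between 14307 and 20648 in saline-treated WT mice and between 15256 and 20940 in saline-treated *Plod1-/-* mice. With Ang II it was between 5600 and 17297 in WT and between 2362 and 17091 in *Plod1-/-* mice. Of these markers 7 fell in WT and 9 in *Plod1-/-* mice. The 8 macrophage markers summed to between 233 and 413 and between 108 and 493 FPKM with saline, 353 and 2047 FPKM in Ang II-treated WT and 1026 and 5521 FPKM in Ang II-treated *Plod1-/-* mice, with 2 higher in WT and 8 in *Plod1-/-* mice. *Ednrb* followed these markers across the 20 mice, the median Pearson correlation of log2(FPKM + 1) being 0.909 with macrophage and -0.929 with smooth muscle markers, and for *Agtr1a* the medians were 0.821 and -0.894. The median of *Agtr1a* was also 0.852 with Schwann cell and glia, 0.818 with chromaffin and sympathetic and 0.807 with neuron markers. *Ace* had a median of 0.667 with smooth muscle markers and 0.0423 with endothelial ones. Larger in size were its negative medians with chromaffin and sympathetic (-0.837) and with Schwann cell and glia markers (-0.782). The same held for neuron (-0.752) and macrophage markers (-0.704). These correlations run over 4 groups and shared libraries and are a description.

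*Ace* did not follow the smooth muscle sum in every mouse. Ang II-treated *Plod1-/-* replicate 1 had *Ace* at 33.4 FPKM with a smooth muscle sum of 17091 FPKM, within the saline range, and *Ednrb* at 4.50 FPKM. That sum was mostly *Acta2*, at 14456 FPKM, as was the smooth muscle sum of every other mouse. In Ang II-treated *Plod1-/-* replicate 1 *Myh11* (801 FPKM), *Smtn* (208), *Lmod1* (149), *Mylk* (73.2), *Synpo2* (25.6) and *Myocd* (1.72) were below every saline-treated *Plod1-/-* mouse. *Cnn1* (1135), *Tagln* (12.2) and *Des* (230) were above all of them. Ang II-treated WT replicate 1 had *Ace* at 186 FPKM with a smooth muscle sum of 5600 FPKM. That *Plod1-/-* mouse also had the lowest endothelial sum, 100.4 FPKM. The 10 endothelial markers summed to between 162 and 378 FPKM with saline and 192 and 382 FPKM with Ang II in WT mice. In *Plod1-/-* mice they summed to between 113 and 249 and between 100.4 and 253 FPKM. With Ang II 4 of them were higher and 2 lower in WT mice, and 4 were higher and 1 lower in *Plod1-/-* mice. The 7 markers of Schwann cells and glia, which also express *Ednrb*, summed to at most 9.04 and 18.9 FPKM with saline and at most 38.4 and 52.9 FPKM with Ang II in WT and *Plod1-/-* mice. The 8 fibroblast markers summed to between 822 and 1256 FPKM with saline and 633 and 1065 FPKM with Ang II in WT mice, and to between 507 and 833 and between 1103 and 5785 FPKM in *Plod1-/-* mice. With Ang II 2 of them, *Col1a1* and *Col3a1*, were higher in *Plod1-/-* mice and 6 did not pass. In WT mice 1, *Fbln1*, was lower and 7 did not pass. The part of cell composition in the values of *Ednrb*, *Agtr1a* and *Ace* was not tested.

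**Figure D2:**
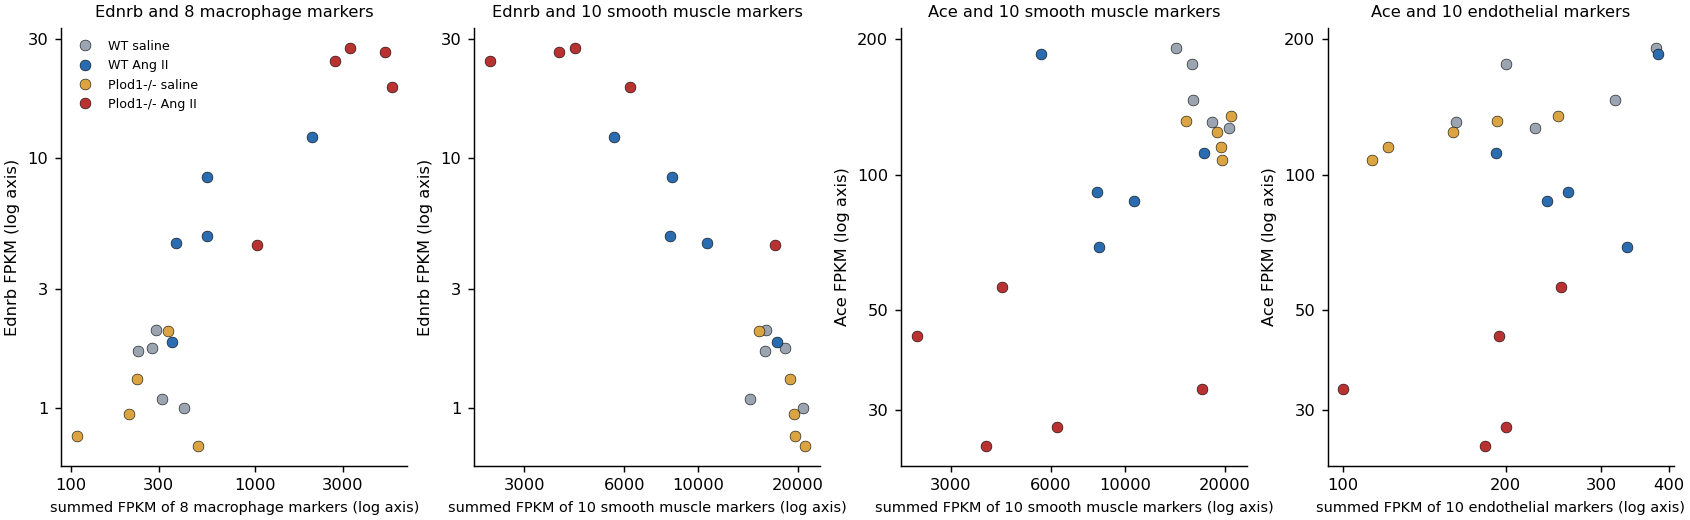
*Ednrb* FPKM in each of the 20 mice against the summed FPKM of the macrophage and of the smooth muscle markers, and *Ace* FPKM against that of the smooth muscle and of the endothelial markers, all on log axes and coloured by group. Ang II-treated *Plod1-/-* replicate 1, at a smooth muscle sum of 17091 FPKM, has *Ace* at 33.4 FPKM, below every saline-treated mouse. That sum is mostly *Acta2*, as is the smooth muscle sum of every other mouse.

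Other tissues that could be taken with the aorta were checked in the same way. Markers of fat summed to between 92.7 and 647 FPKM in saline-treated WT and 1052 and 6468 FPKM in Ang II-treated WT mice, and to between 153 and 2084 and between 525 and 3213 FPKM in *Plod1-/-* mice. Markers of chromaffin and sympathetic cells reached 315 FPKM in Ang II-treated *Plod1-/-* mice and at most 5.98 FPKM in the other groups, and markers of neurons 492 FPKM against at most 145 FPKM. The chromaffin and sympathetic sum of 315 FPKM was mostly *Dbh* and *Th*, at 198 and 81.4 FPKM in replicate 4. *Pnmt*, of the same list, went the other way. In *Plod1-/-* mice it was at least 1.69 FPKM with saline and at most 0.378 FPKM with Ang II. It was the 1 marker of that list tested there, and passed as lower (log2 fold change -1.48). Markers of skeletal muscle reached 285 FPKM in Ang II-treated WT mice and at most 8.63 FPKM elsewhere. Markers of adrenal cortex and kidney summed to at most 3.30 and 4.02 FPKM in any library, and those of mast cells to between 14.7 and 88.1 FPKM.

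The other genes of the renin-angiotensin system and of related signals were counted against the shares of all genes given above, which were 16.5% higher and 21.5% lower in WT and 23.8% higher and 20.1% lower in *Plod1-/-* mice. Of 16 renin-angiotensin genes listed, 12 were tested in WT mice, where *Mme*, a protease that degrades many vasoactive peptides, rose (1.12, adjusted p = 0.00210, limma), and *Lnpep*, *Ren1* and *Agtr1b* fell by 0.76, 0.61 and 0.47 on the log2 scale. In *Plod1-/-* mice 11 were tested and the peptidase genes *Prcp* (1.46, adjusted p = 0.000469, limma), *Nln* (1.06) and *Thop1* (0.55) rose, with none lower. The median log2 fold change of the list was 0.11 in WT and 0.25 in *Plod1-/-* mice, beside -0.14 and 0.05 over all genes tested. Of 6 other endothelin genes 2 were tested. *Ece2*, an endothelin-converting enzyme, rose in *Plod1-/-* mice (0.60, adjusted p = 0.00800, limma), and neither passed in WT mice, the medians being -0.03 and 0.40.

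Among 12 other adrenergic and vasopressin genes 4 were tested for Ang II in each genotype, of which 2 rose in WT mice, and 1 rose and 1 fell in *Plod1-/-* mice. *Adrb3*, a receptor of adipocytes, rose in WT mice (4.33, adjusted p = 0.00181, limma), the group in which 7 of the 7 fat markers tested also rose. *Adra1b* fell in *Plod1-/-* mice by 0.79 (adjusted p = 0.00122, limma). The median log2 fold change was 0.56 in WT and 0.15 in *Plod1-/-* mice.

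Of 20 receptors listed for other constrictor signals, 12 were tested in WT mice, and 6 fell and none rose with a median of -0.63, while in *Plod1-/-* mice 4 of 13 rose and 5 fell with a median of -0.02. *Bdkrb1*, the bradykinin receptor that appears in injured and inflamed tissue, was at 3.97, 3.32, 4.42, 6.89 and 3.41 FPKM with saline and at 2.05, 0.420, 0.508, 2.38 and 0.310 FPKM with Ang II in WT mice. It was at 1.25, 1.48, 1.49, 1.25 and 1.59 FPKM with saline and at 3.67, 5.12, 5.54, 4.38 and 2.47 FPKM with Ang II in *Plod1-/-* mice. The groups did not overlap in either genotype, and the gene was lower with Ang II in WT (-1.43, adjusted p = 0.00515, limma) and higher in *Plod1-/-* mice (1.09, adjusted p = 0.000457, limma), an interaction of 2.51 (adjusted p = 7.79e-05, limma). *Npy1r*, a receptor for the sympathetic transmitter neuropeptide Y, was between 34.5 and 54.4 FPKM in all saline-treated mice and between 5.64 and 13.6 FPKM in the Ang II-treated *Plod1-/-* mice. It fell by 1.00 in WT and by 2.21 in *Plod1-/-* mice (adjusted p = 5.31e-05 in the latter, limma). *Tbxa2r*, the thromboxane receptor, fell by 1.5 in *Plod1-/-* mice (adjusted p = 0.000344, limma), with an interaction of -1.71 (adjusted p = 0.000152, limma). With saline alone *Bdkrb1* passed as lower and *Tbxa2r* as higher in *Plod1-/-* than in WT mice, and the saline-treated groups enter both interactions. *Bdkrb1* in the Ang II-treated *Plod1-/-* mice, between 2.47 and 5.54 FPKM, overlapped the saline-treated WT mice, between 3.32 and 6.89 FPKM.

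Beside *Rgs2*, 15 other RGS genes were listed. In WT mice 8 were tested, of which *Rgs3* and *Rgs7* rose and *Rgs5* (-1.36, adjusted p = 0.00818, limma) and *Rgs11* fell. In *Plod1-/-* mice 10 were tested, and *Rgs16* (2.13), *Rgs10* (2.06), *Rgs19* (1.62, adjusted p = 2.32e-05, limma) and *Rgs18* (1.28) rose while *Rgs5* (-1.93), *Rgs17* (-1.49), *Rgs11* (-1.11) and *Rgs4* (-0.79) fell. *Rgs5* is a gene of pericytes and arterial smooth muscle, and *Rgs10*, *Rgs18* and *Rgs19* are expressed in blood cells. The medians were -0.27 and -0.04. Of 25 genes of Gq and G12 signalling 23 were tested. In WT mice 3 rose and 3 fell, with a median of -0.12, and in *Plod1-/-* mice 4 rose and 7 fell, with a median of 0.06. *Itpr1*, the calcium release channel of smooth muscle, fell by 1.26 (adjusted p = 4.19e-05, limma) and *Plcb4*, a phospholipase activated by Gq, by 1.34 in *Plod1-/-* mice, where *Arrb2*, a beta-arrestin, rose by 2.07 (adjusted p = 0.00146, limma).

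**Figure D3:**
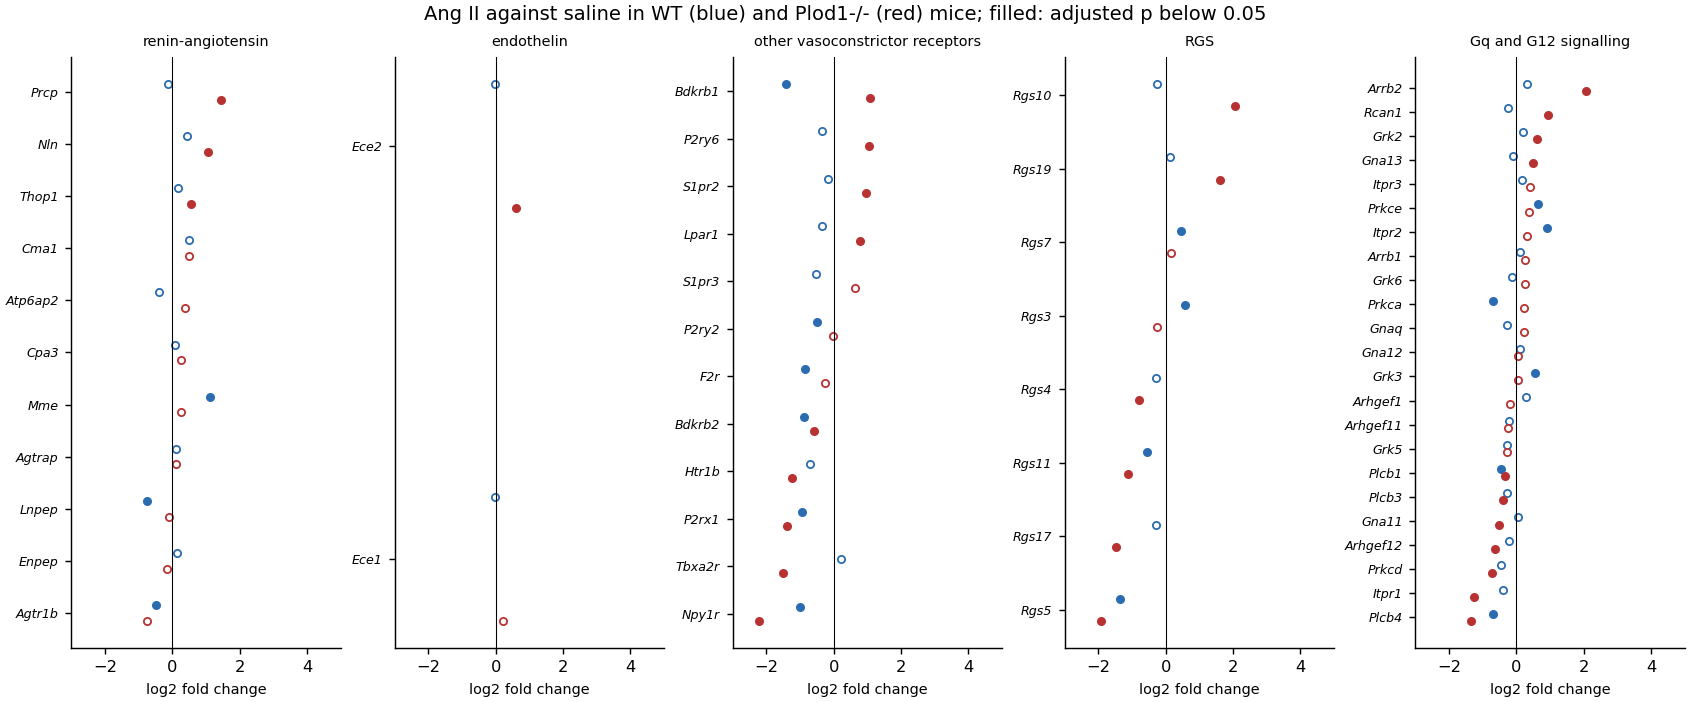
Log2 fold change of Ang II against saline on the horizontal axis, in WT (blue) and in *Plod1-/-* mice (red, filled where the adjusted p was below 0.05 in either colour), for the genes of 5 lists tested in both, which are 11 renin-angiotensin, 2 endothelin, 12 other vasoconstrictor receptor, 8 RGS and 23 Gq and G12 signalling genes. *Bdkrb1* lies at -1.43 in WT and 1.09 in *Plod1-/-* mice.

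Without the libraries with *Acta1* no gene of these lists passed in WT mice. Without those with *Dbh* the *Plod1-/-* counts were 3 of 10 renin-angiotensin genes higher, 0 of 2 endothelin genes in either direction, 2 of 3 adrenergic and vasopressin genes lower, 2 of 12 other constrictor receptors higher and 3 lower, 2 of 8 RGS genes higher and 3 lower, and 1 of 22 Gq and G12 genes higher and 3 lower. *Bdkrb1* was then at -0.71 in WT (adjusted p = 0.196, limma) and 1.15 in *Plod1-/-* mice (adjusted p = 0.00294, limma), and its interaction passed without either set, at 1.80 and 2.58. *Npy1r* and *Tbxa2r* still passed in *Plod1-/-* mice, at -1.75 and -1.15, whereas *Ece2* (0.27, adjusted p = 0.147, limma) and *Rgs5* (-1.45, adjusted p = 0.0532, limma) did not.

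Under Ang II, where 20.8% of all genes were higher and 10.4% lower, 2 of the 10 other renin-angiotensin genes tested were higher in *Plod1-/-* than in WT mice, *Prcp* by 1.24 (adjusted p = 0.00684, limma) among them, with none lower. Of the endothelin genes 1 of 2 was higher, of the adrenergic and vasopressin genes 2 of 6 were lower, and of the other vasoconstrictor receptors 4 of 14 were higher and 1 was lower. Of the RGS genes 5 of 12 were higher and 2 lower, and of the Gq and G12 genes 6 of 23 were higher and 2 lower. None of these passed without either set of libraries. With saline, where 3.33% of all genes were higher and 3.23% lower, the same lists gave 2 of 11 lower, 0 of 2, 0 of 4, 1 of 12 higher and 2 lower, 1 of 8 in each direction and 1 of 23 higher.

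For each member that reached 1 FPKM in at least 5 mice, the 3 genes with the most similar profile over the 20 mice were found by the Pearson correlation of log2(FPKM + 1). They were Csf2rb (0.976), Ttyh2 (0.975) and Ggt5 (0.973) for *Ednrb*, and Itsn1 (0.962), Sec16b (0.952) and Dsn1 (0.935) for *Ednra*. For *Agtr1a* they were Fam89a (0.951), Lrrc8d (0.950) and Cdh2 (0.948), and for *Ace* Zhx3 (0.935), Rundc1 (0.930) and Tmtc1 (0.917). With the group means removed the correlations were 0.938 for *Ednrb* with Csf2rb, 0.929 for *Ednra* with Itsn1, 0.877 for *Agtr1a* with Fam89a and 0.607 for *Ace* with Zhx3, so that the likeness of *Ace* to Zhx3 lay more in the group means. For *Agt* the genes were Acat3 (0.920), Serpina3m (0.917) and Chac1 (0.915), for *Avpr1a* Dyrk2 (0.881), Naa35 (0.876) and Ttc9c (0.870), and for *Adra1d* Pitpnm2 (0.882), Hdac5 (0.843) and Atoh8 (0.835). *Rgs2* was closest to Prtn3 (0.828), Psen2 (0.817) and P2rx4 (0.802), and among the genes closest to *Edn1* were Snora41 (0.763) and Gm45930 (0.743). With so many genes compared over 20 mice that share libraries, such values are a description.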

How the data were processed

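The authors deposited 1 table of FPKM values per mouse, made according to the study's methods by alignment with HISAT2, assembly with StringTie and quantification with cuffquant and cuffnorm from libraries that were not strand-specific. The submitters' processing notes name mm10, HISAT2 2.1.0, Bowtie2 2.2.3 and HTSeq 0.6.0. Gene IDs were matched to GENCODE M21. Values were compared as log2(FPKM + 1) with limma 3.58.1 (R 4.3.3, moderated variance with a trend, Benjamini-Hochberg adjustment over all genes tested), keeping genes at 1 FPKM or more in at least 5 mice. A fold change on this scale understates that of low genes. Members below the filter were compared by two-sided exact permutation tests, also run in R 4.3.3. The limma fit was tested on simulated data for the comparison of Ang II with saline in WT mice, and the permutation test on small constructed sets of values.

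The members and lists were chosen with earlier results of these data known, and the Schwann cell and neuron markers and both sets of omitted libraries after values were seen. Genes named are every member, pathway genes with an adjusted p below 0.05 (up to 6 per list and comparison), the 3 genes most like each member, *Plod1*, *Xist* and cell type markers. Some genes that this rule names are not reported here. *Dbh*, *Acta1* and the genes overlapping members were named after their values were seen. Alternatives were a pseudocount of 0.1, no filter, quantile normalization, the replicate number as a block, weights per mouse, all 4 groups in 1 fit, omission of each mouse and omission of libraries with *Xist*, *Dbh* or *Acta1*. The mice of a group are separate animals. The study describes WT and *Plod1-/-* littermates bred from heterozygous parents, with random assignment to groups. Which of the mice used here shared a litter is not given. P-values set differences against the spread between the mice of a group, with each mouse as 1 unit.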

Additional observations from a re-analysis of the deposited data

Results flagged for a closer look

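In Ang II-treated WT replicate 1, *Agt* was at 2.49 FPKM, far from the other 4 mice of its group, the nearest of which was at 0.619 FPKM (Dixon's ratio 0.838, critical value 0.71). *Rgs2* in the same mouse was at 38.7 FPKM, with the nearest other mouse at 18.2 FPKM (ratio 0.782). These were 2 of 40 gene and group combinations examined, and chance alone gives about 1 in 20. That mouse also had the lowest smooth muscle marker sum of its group, 5600 FPKM, and the highest *Ednrb*, *Ace* and *Edn1* values of its group.

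The response to Ang II differed between the genotypes by a test of the interaction (limma, 20 mice) for 4 members. The differences, *Plod1-/-* minus WT on the log2 scale, were -1.19 for *Ace*, 1.14 for *Edn1*, 1.76 for *Ednrb* and 0.97 for *Avpr1a*. For *Edn1* the estimates had opposite signs in the 2 genotypes, and only the one in *Plod1-/-* mice passed its own test.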

How the results depend on the processing

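Counts of members are given as DEGs and as those with an adjusted p below 0.05 by limma. For Ang II in WT mice (1 and 1) the second count was 2 with no filter or quantile normalization and 3 with weights, and both were 0 without the *Acta1* libraries. For Ang II in *Plod1-/-* mice (4 and 7) the first was 6 with a pseudocount of 0.1, with weights or without the *Xist* libraries. The second was 6 with no filter or quantile normalization, 8 with the block, 1 fit or no *Xist* libraries, and 9 with weights. Both were 1 without the *Dbh* libraries. Between genotypes under Ang II (2 and 2) they were 1 and 1 with no filter or the replicate block and 4 and 8 with weights. They were 0 and 0 without the *Dbh* or the *Acta1* libraries and 3 and 6 without the *Xist* libraries, and the second was 4 in 1 fit of all groups. With saline (0 and 1) the second was 0 with no filter, the block or 1 fit. For the interaction (3 and 4) they were 5 and 5 with a pseudocount of 0.1, 2 and 2 with no filter and 3 and 5 with quantile normalization. They were 4 and 5 with the block, 7 and 8 with weights and 6 and 7 without *Xist* libraries. Without the *Dbh* libraries they were 0 and 0, and without the *Acta1* libraries 1 and 1. Leaving out 1 mouse gave 1 to 1 and 1 to 3 in WT, 3 to 6 and 4 to 8 in *Plod1-/-*, 1 to 3 and 1 to 6 under Ang II, 0 to 0 and 0 to 1 with saline, and 3 to 6 and 3 to 7 for the interaction. The causes of these shifts were not tested. Where libraries were left out, the fits also had fewer mice, and these 2 changes cannot be told apart.

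No value that passed reversed. Small values that changed sign were, for Ang II in WT mice, *Avpr1a* (0.0032 under quantile normalization, 0.00129 without *Acta1* libraries, -0.130 to 0.0474 without 1 mouse), *Ednra* (-0.0814 with weights) and *Adra1d* (-0.366 to 0.0560 without 1 mouse). Under Ang II without the *Dbh* libraries *Agtr1a* was -0.0541 and *Avpr1a* -0.0669, and the interaction of *Agtr1a* was -0.158. With saline *Rgs2* was -0.000264 under quantile normalization, -0.0890 without *Xist* libraries and -0.178 to 0.188 without 1 mouse, and *Ednra* was -0.00294 without *Xist* libraries and -0.00294 to 0.191 without 1 mouse.

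The deviations of same-numbered mice correlated between -0.332 and 0.421. No source says what a shared number means, and these values cannot show whether such mice shared a litter or a batch. With the replicate block, *Ednrb* under Ang II and *Avpr1a* with saline no longer passed (adjusted p = 0.0999 and 0.0992), and *Ednra* in *Plod1-/-* mice and the interaction of *Adra1d* did (0.0394 and 0.0475). Over all genes, DEGs numbered 1039 in WT mice and 0 without the *Acta1* libraries, 1714 in *Plod1-/-* mice and 810 without the *Dbh* libraries, 1373 under Ang II and 11 or 0 without either, 92 with saline and 41 to 149 under other settings, and 2129 for the interaction and 1165 or 941 without either. With weights they numbered 2134 under Ang II. Under quantile normalization the median over all genes shifted from 0.05 to -0.06 in *Plod1-/-* mice, from 0.12 to -0.03 under Ang II and from 0.12 to -0.01 for the interaction. *Agtr1a* and *Agt* left the fit in *Plod1-/-* mice in 5 of 10 omissions each and gave no value there. Depth is unknown, so the fragments behind the low values of *Agtr2*, *Agt* and *Agtr1a* could not be given.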
